A study of Mus musculus with 23 samples.

Results

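The kynurenine pathway enzymes were examined as 7 genes, *Ido1*, *Ido2*, *Tdo2*, *Afmid*, *Kmo*, *Kynu* and *Haao*, out of 24940 gene symbols listed for whole tumors and for sorted cancer-associated fibroblasts (CAFs). They were taken by symbol, with 1 RefSeq transcript per gene, and all 7 were listed in both tables. The tumors grew from cancer cell lines of C57BL/6 origin, of which 500000 cells were injected under the skin of adult female C57BL/6 mice. The injection was made in the right flank or on both sides, and the mice received no further treatment. The 5 models were B16 (B16-F10 melanoma), LL2 (lung carcinoma), Pan02 (pancreatic ductal carcinoma), EO771 (EO771.LMB breast carcinoma) and MC38 (colon carcinoma), with 3 tumors each. CAFs were FAP+ cells, sorted from the fraction left after CD45+ cells had been removed, with 2 libraries each for LL2, Pan02, EO771 and MC38. B16 CAFs were not analysed here, nor were CT26 tumors and CAFs. Each model rests on 1 cell line, so that line and tumor type cannot be told apart. The sample titles of the Pan02 tumors read Pan01, while their cell line label reads Pan02.

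The pathway is the main route by which tryptophan is broken down. *Ido1* and *Ido2*, the indoleamine dioxygenases, and *Tdo2*, the tryptophan dioxygenase best known from liver, open the ring of tryptophan. *Afmid*, a formamidase, then releases kynurenine, which *Kmo* hydroxylates and *Kynu* cleaves, and *Haao* makes the precursor of quinolinate on the way to NAD. In tumors the pathway is known for the induction of *Ido1* by interferon-gamma and for kynurenine as a ligand of the aryl hydrocarbon receptor, through which T cells can be restrained.

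*Ido1* (NM_008324) and *Ido2* (NM_145949) lie side by side on the minus strand of chromosome 8 in mm10, from 24584133 to 24596952 and from 24531892 to 24576333. As paralogs might share reads, their transcripts in GENCODE vM21 were compared. The longest identical run was 15 bases, in exon 3 of both, and no stretch of 20 bases was common to both. The 2 coding windows around this run, on the minus strand of mm10 at chr8:24593136-24593190 for *Ido1* and chr8:24553764-24553818 for *Ido2*, are shown to let the pair be compared, with the shared run in capitals.
Ido1: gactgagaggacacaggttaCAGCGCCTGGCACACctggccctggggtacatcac
Ido2: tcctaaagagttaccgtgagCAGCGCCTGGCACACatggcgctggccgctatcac
The other transcripts were *Tdo2* (NM_019911, chromosome 3 from 81958414 to 81975728, minus strand), *Kmo* (NM_133809, chromosome 1 from 175632193 to 175660853, plus strand) and *Kynu* (NM_027552, chromosome 2 from 43555325 to 43683048, plus strand). *Haao* (NM_025325) spans 83831354 to 83846790 on the minus strand of chromosome 17 and *Afmid* (NM_027827) 117825919 to 117839908 on the plus strand of chromosome 11. *Afmid* was the only 1 of the 7 whose exons overlapped those of other annotated genes. It shared 1566 of 2327 exon bases with the read-through gene *Gm20708* on its own strand and 83 with *Tk1* on the opposite strand, and the libraries were unstranded, so that its counts may hold reads of these genes.

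Promoters of *Tdo2*, *Kmo*, *Haao* and *Afmid* were present in the RefSeq promoter table of GRCm38.p6, each running from 250 bases before to 50 bases after the start of the gene. None of these 4 held the interferon regulatory factor core GAAANNGAA or the GAS element TTCNNNGAA on either strand, which occurred in 8.56% and 8.3% of all 32851 promoters. The aryl hydrocarbon receptor element GCGTG, found in 32.4% of all promoters, occurred once in *Tdo2* and once in *Haao*. The promoters of *Tdo2* (minus strand, chr3:81975679-81975978) and *Kmo* (plus strand, chr1:175631943-175632242), both called higher in Pan02 tumors, *Tdo2* through 1 tumor, are shown with matches to these motifs in capitals.
Tdo2: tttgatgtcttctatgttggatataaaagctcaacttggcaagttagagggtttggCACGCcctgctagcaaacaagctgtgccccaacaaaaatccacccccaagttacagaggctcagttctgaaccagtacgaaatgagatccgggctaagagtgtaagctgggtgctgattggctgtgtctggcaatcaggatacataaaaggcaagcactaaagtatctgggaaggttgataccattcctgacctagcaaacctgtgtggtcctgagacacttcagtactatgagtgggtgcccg
Kmo: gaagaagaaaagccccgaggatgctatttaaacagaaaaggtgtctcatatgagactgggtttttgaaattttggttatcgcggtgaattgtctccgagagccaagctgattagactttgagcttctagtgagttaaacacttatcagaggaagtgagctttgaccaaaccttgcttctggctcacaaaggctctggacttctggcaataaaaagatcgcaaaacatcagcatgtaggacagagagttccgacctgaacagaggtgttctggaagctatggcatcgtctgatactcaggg

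The tumor libraries held between 10035180 and 21946495 counts, and the CAF libraries between 9270000 and 22840000 reads as recovered from their values. All 9 fibroblast markers were found in every CAF model. In RPKM (reads scaled by transcript length and library size), they summed to 8979.5 and 9732.6 in EO771 CAFs. The sums were 7011.2 and 8253.5 in LL2 CAFs, 1530.3 and 6550.6 in MC38 CAFs and 2386.3 and 3879.8 in Pan02 CAFs. Whole tumors held 714.0 to 1539.9 in EO771, 1166.7 to 2671.7 in LL2, 585.0 to 2476.3 in MC38 and 8159.3 to 9082.5 in Pan02. The lower MC38 CAF library was thus within the range of MC38 tumors, and Pan02 CAFs were below Pan02 tumors. Markers of other cell types were found in the sorted cells too. Summed RPKM of 6 epithelial markers reached 836.0 and 1122.2 in Pan02 CAFs, 494.0 and 501.0 in EO771 CAFs and 205.0 and 211.0 in LL2 CAFs, compared with 1.78 and 4.23 in MC38 CAFs. Whole MC38 tumors were low in these markers too, at 4.28 to 33.4, and Pan02 tumors highest, at 1349.0 to 2092.5. The 8 leukocyte markers summed to 64.1 and 76.4 in EO771 CAFs and to at most 33.1 in the other CAF libraries. The melanocyte markers summed to at least 10762.6 in B16 tumors and to at most 15.6 in the other tumors. In bulk RNA, fewer cells of a type and less RNA per cell cannot be told apart.

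In tumors, the enzymes fell into a pair that was high in MC38, a group that was high in Pan02, and *Afmid* and *Haao*, which were called in none of the contrasts of a model with the others. The question here was whether the models differ in the pathway, and the edgeR quasi-likelihood test was applied to all 15732 genes with sufficient counts. A gene was called at a Benjamini-Hochberg adjusted p under 0.05 and, for a contrast between models, a log2 fold change of at least 1 in either direction. Among the 5 models 6 of the 7 enzymes were called, where 91.1% of all tested genes were, so this count says nothing particular about the pathway. *Haao* was the enzyme not called (adjusted p = 0.1). Against the mean of the other 4 models, 5 of the 7 were called higher in Pan02 tumors (18.8% of all tested genes) and 2 in MC38 tumors (11.2% of all tested genes). In the other direction, 3 of the 7 were called lower in EO771 tumors (13.7% of all tested genes), 2 in B16 tumors (19.6% of all tested genes) and 2 in LL2 tumors (8.3% of all tested genes). The lower calls were *Ido1* and *Ido2* in each of these models, with *Kynu* added in EO771. The means they were compared with include MC38 and Pan02, where *Ido1* and *Ido2* were high. The 5 contrasts share tumors and are not independent of each other.

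**Figure D1:**
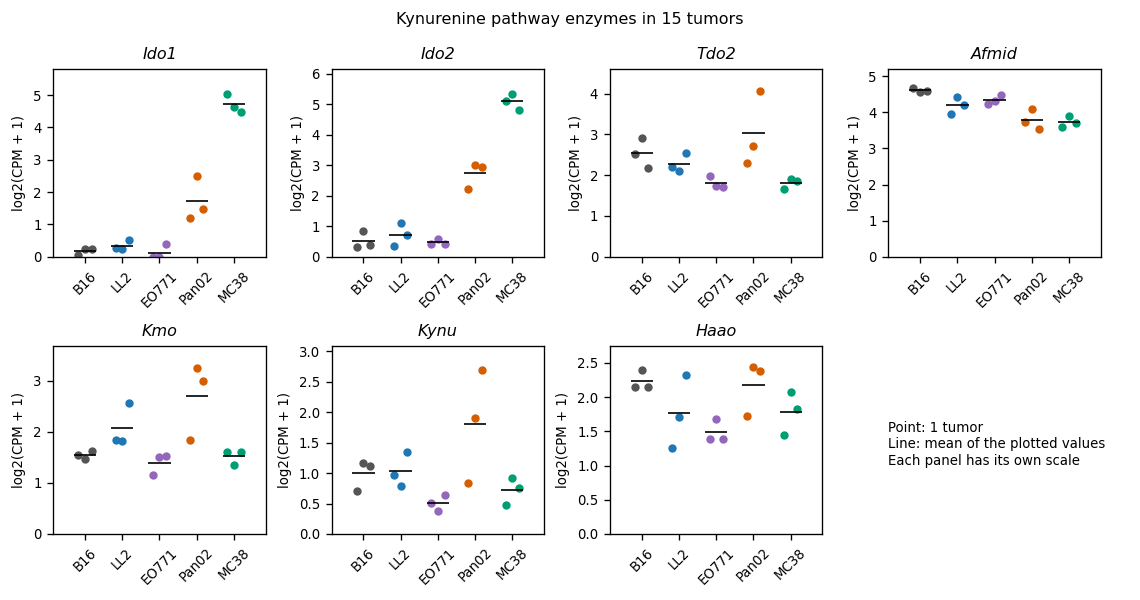
Levels of the 7 enzymes in 15 tumors as log2(CPM + 1), with 1 point per tumor, a line at the mean of the plotted values of each model, and a scale of its own for each panel. *Ido1* and *Ido2* of the 3 MC38 tumors lie above all other tumors, and in Pan02 tumor 3 *Tdo2* reaches 15.8 CPM.

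*Ido1*, the enzyme that interferon-gamma induces, was measured in MC38 tumors at 31.8, 23.8 and 21.4 CPM (counts scaled to the size of each library, with TMM factors) and in Pan02 tumors at 1.29, 4.65 and 1.8 CPM. It was at 0.0491, 0.186 and 0.175 CPM in B16 tumors and at 0.204, 0.182 and 0.438 CPM in LL2 tumors. In EO771 tumors it was counted 0 times in tumors 1 and 2, which allows up to 0.158 and 0.255 CPM, and reached 0.305 CPM in tumor 3. Thus each MC38 tumor lay above every other tumor and each Pan02 tumor above every B16, LL2 and EO771 tumor, while the latter 3 models overlapped. MC38 exceeded Pan02, the next in order, by 3.32 ± 0.54 (log2 fold change and its standard error, adjusted p = 0.00016), and Pan02 exceeded LL2 by 3.15 (adjusted p = 0.0014). LL2 and B16 (0.7, adjusted p = 0.52) and B16 and EO771 (0.75, adjusted p = 0.58) did not pass the threshold. Only the MC38 and Pan02 tumors reached the count limit for testing, so *Ido1* entered the test through the groups in which it was high. For the low models the fitted fold change rests on 0 to 7 counts per tumor, and without EO771 tumor 3, the 1 tumor of its model with counts, the lower calls of B16 (-1.79, adjusted p = 0.97) and LL2 (-0.91, adjusted p = 0.91) were lost.

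*Ido2*, the neighboring paralog, followed the same order of models. It was at 33.5, 39.9 and 27.3 CPM in MC38 tumors, 3.69, 7.11 and 6.78 CPM in Pan02 tumors, and between 0.246 and 1.15 CPM in the 9 tumors of the other models. MC38 exceeded Pan02 by 2.52 ± 0.38 (adjusted p = 8.8e-05) and Pan02 exceeded LL2 by 3.05 (adjusted p = 8.1e-05), whereas LL2, B16 and EO771 overlapped and were not told apart (adjusted p = 0.38 and 0.76 between neighbors). Both dioxygenases were also called higher in Pan02 against the mean of the other models, *Ido1* by 2.07 ± 0.46 (adjusted p = 0.0015) and *Ido2* by 1.99 ± 0.29 (adjusted p = 5.8e-05). Markers of dendritic cells, which can express *Ido1*, summed to 24.2 to 31.0 RPKM in MC38 tumors and to 12.7 to 114.0 RPKM in the others, with the highest sum in Pan02. T and NK cell markers summed to 38.0 to 43.9 RPKM in MC38 and to 4.64 to 63.8 RPKM elsewhere, and the part of these cells in the levels of both genes was not tested. These Pan02 calls were kept when each of the 3 Pan02 tumors was left out in turn. Per length, the levels of the pair in MC38 tumors were of like size, at 21.3, 15.9 and 14.3 RPKM for *Ido1* and 11.2, 13.3 and 9.11 RPKM for *Ido2*.

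**Figure D2:**
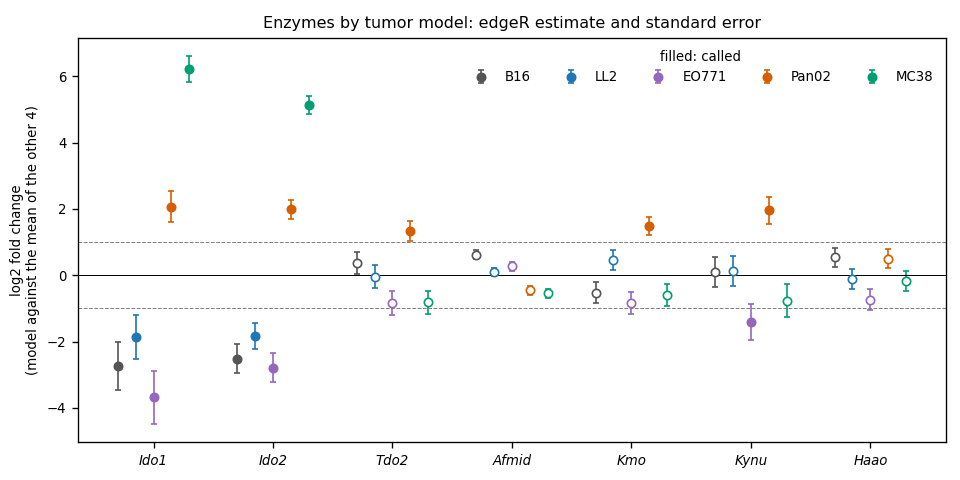
Contrast of each tumor model with the average of the remaining 4 for every enzyme (log2 fold change, edgeR), with bars of 1 standard error, filled points for called contrasts and dashed lines at -1 and 1. *Ido1* and *Ido2* spread from about -4 to 6, and for *Tdo2*, *Kmo* and *Kynu* the filled points above 1 are those of Pan02.

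*Kmo*, which hydroxylates kynurenine, was at 2.59, 8.43 and 6.96 CPM in Pan02 tumors and at 2.55, 2.53 and 4.94 CPM in LL2 tumors. The 9 tumors of B16, EO771 and MC38 held 1.22 to 2.09 CPM. Pan02 tumors 2 and 3 were thus the highest of all 15, and Pan02 tumor 1 lay within the range of LL2. The contrast of Pan02 with the other models gave 1.49 ± 0.28 (log2, adjusted p = 0.00051), while the step from LL2 to Pan02 did not pass the threshold (0.83, adjusted p = 0.094). *Kynu*, which cleaves kynurenine and hydroxykynurenine, showed the same spread, with 0.781, 2.73 and 5.46 CPM in Pan02 tumors and 0.297 to 1.53 CPM in the other 12 tumors. For *Kynu* the Pan02 contrast gave 1.96 ± 0.41 (adjusted p = 0.00093), and Pan02 exceeded LL2 by 1.46 (adjusted p = 0.046). In EO771 tumors, at 0.424, 0.297 and 0.566 CPM, *Kynu* was called lower by -1.41 (adjusted p = 0.043), but this call rests on 3.5 to 8.0 counts per tumor and was lost in 9 of 15 fits that each left out 1 tumor.

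Markers of macrophages, which are known to express *Kmo* and *Kynu*, were in the same order as *Kynu*, but not as *Kmo*, among the 3 Pan02 tumors. The 8 macrophage markers, none at 0, summed to 1258.0, 2878.2 and 5319.0 RPKM in Pan02 tumors 1, 2 and 3, and to between 384.0 and 2360.9 RPKM in the other 12 tumors. Their lowest sums were those of B16, at 384.0 to 750.0, while the lowest model means of *Kmo* and *Kynu* were those of EO771, with marker sums of 1493.9 to 1713.2. Other cell types were high in Pan02 tumors as well, with sums of 9 fibroblast markers at 8159.3 to 9082.5 RPKM against at most 2671.7 elsewhere and of 5 mast cell markers at 269.0 to 517.0 RPKM against at most 273.0. The summed hepatocyte markers, at 130.0, 136.0 and 262.0 RPKM in Pan02 tumors 1, 2 and 3, were in the order of *Kynu* too. The part of all these cell types in the Pan02 levels was not tested. Of B cell markers, Pan02 tumor 2 had the highest sum of all tumors, at 13.9 RPKM.

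*Tdo2* was at 3.93, 5.56 and 15.8 CPM in Pan02 tumors, 4.71, 6.5 and 3.52 in B16, 3.6, 3.31 and 4.85 in LL2, 2.94, 2.34 and 2.27 in EO771 and 2.19, 2.76 and 2.64 in MC38. Pan02 tumor 3 stood well above the other 14, and the rest of Pan02 overlapped with B16 and LL2. The call in Pan02 (1.33 ± 0.31 on the log2 scale, adjusted p = 0.002) was decided by this tumor, since without it the value was 0.51 (adjusted p = 0.084) and 4 rather than 5 enzymes were called higher in Pan02. No step between neighbors in the order Pan02, B16, LL2, MC38 and EO771 passed the threshold.

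*Tdo2* moved with genes of hepatocytes, the cells in which it is best known. All 6 hepatocyte markers, none at 0 in any model, were found in the tumors, and their summed RPKM was 130.0, 136.0 and 262.0 in Pan02 tumors, at most 176.0 in B16, 107.0 to 159.0 in LL2, 77.9 to 90.1 in EO771 and 79.9 to 84.7 in MC38. The tumor with the highest sum was again Pan02 tumor 3. Relative to *Alb*, which encodes albumin, *Apoa1* stayed between 40.3% and 46.3% in all 15 tumors and *Ttr* between 17.6% and 21.8%, so these genes were in near-constant proportion whatever the model. The less abundant markers varied more, with *Fgb* at 7.1% to 9.78%, *Serpina1a* at 2.45% to 4.29% and *Cps1* at 1.81% to 2.68% of *Alb*. *Tdo2* amounted to 1.56% to 2.27% of the hepatocyte sum in the 12 tumors outside Pan02 and to 1.87%, 2.52% and 3.73% in Pan02 tumors 1, 2 and 3. Relative to this sum, Pan02 tumor 1 was within the range of the other models and tumors 2 and 3 above it. In CAF libraries the same markers summed to 0.893 to 1.93 RPKM. The source of these transcripts and their part in the *Tdo2* levels was not tested.

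**Figure D3:**
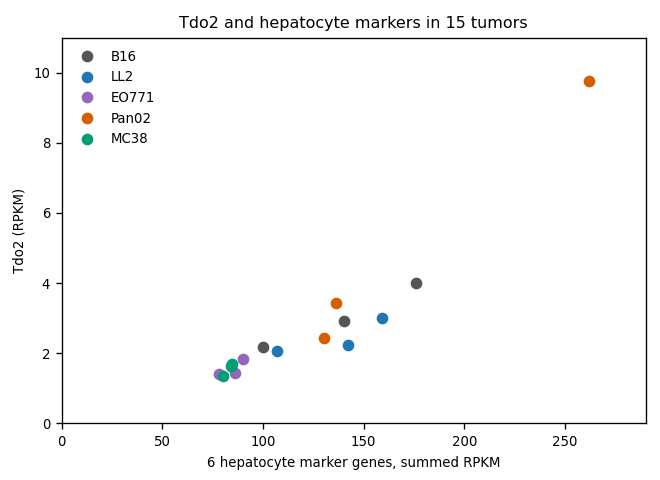
*Tdo2* (RPKM) against the summed RPKM of 6 hepatocyte markers in 15 tumors, 1 point per tumor, coloured by model. The tumors line up from MC38 and EO771 at the lower left to B16, and Pan02 tumor 3 is at the upper right with 9.76 RPKM of *Tdo2* and a sum of 262.0.

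*Afmid*, which releases kynurenine, differed among the models by less than 2-fold. It was highest in B16 tumors, at 24.6, 22.9 and 23.3 CPM, all above the other 12, whose highest value was 21.4 CPM in EO771. In MC38 tumors it was at 11.2 to 13.8 CPM, and in Pan02 tumors at 12.3, 16 and 10.6 CPM. The contrasts gave 0.62 ± 0.13 in B16 (log2, adjusted p = 0.0009), -0.54 in MC38 (adjusted p = 0.0058) and -0.45 in Pan02 (adjusted p = 0.013), which pass the p-value threshold but not the fold threshold, as 63.5%, 51.4% and 60.6% of all tested genes pass by p alone. Reads of *Gm20708* and *Tk1* may be included. *Haao* varied from 1.39 to 4.42 CPM, and most of this range was found within LL2 alone, at 1.39, 2.27 and 4.01 CPM. Its largest step was B16 against EO771 at 1.02 ± 0.38 (log2, adjusted p = 0.034), a pair in which all 3 B16 tumors, at 3.42 to 4.26 CPM, were above the 3 EO771 tumors, at 1.61 to 2.21 CPM.

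For the first step of the pathway, levels were compared per length. *Tdo2* made up 4.0% to 6.49% of the summed RPKM of *Ido1*, *Ido2* and *Tdo2* in MC38 tumors and 38.5% to 73.8% in Pan02 tumors. In B16 it made up 90.9% to 96.2%, in LL2 80.2% to 90.7% and in EO771 81.4% to 94.1%. The 3 enzymes together summed to 25.1 to 33.8 RPKM in MC38 tumors, 4.52 to 13.2 RPKM in Pan02 tumors and 1.61 to 4.4 RPKM in the others. As *Tdo2* moved with hepatocyte genes and the source of its transcripts was not tested, these shares describe the RNA in the libraries. *Kmo*, *Kynu* and *Haao* together were at 2.37 to 3.56 RPKM in MC38 tumors, 3.19 to 8.06 RPKM in Pan02, 3.82 to 4.63 RPKM in B16, 2.49 to 5.8 RPKM in LL2 and 1.96 to 2.65 RPKM in EO771, so that MC38 tumors, highest in the first step, were not highest in the later ones.

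In CAFs, *Afmid* was found at 174.0 or more reads in every library, *Ido1* and *Ido2* in all models but EO771 at 7.0 or more reads, and the other 4 enzymes at no more than 12.0 reads in any library. With limma on log2(RPKM + 1), 3 of the 7 enzymes had at least 1 RPKM in 2 libraries and were tested, and 2 of these were called among the 4 models, where 80.4% of all 13598 tested genes were. *Ido2* was at 3.71 and 4.74 RPKM in MC38 CAFs, 0.576 and 0.978 in Pan02 CAFs, 0.147 and 0.102 in LL2 CAFs and 0.04 and 0.033 in EO771 CAFs. Both MC38 libraries lay above all others and both EO771 libraries below. *Ido2* was called higher in MC38 CAFs, by 2.03 ± 0.14 (adjusted p = 4e-05), the 1 of 3 tested enzymes called there against 10.9% of all tested genes. It was called lower in EO771 CAFs, by -1.07 (adjusted p = 0.00072), where 7.06% of all tested genes were called lower. That contrast has MC38 CAFs in the mean of the others. EO771 CAFs differed from LL2 CAFs by -0.12 (adjusted p = 0.61) and from Pan02 CAFs by -0.77 (adjusted p = 0.0068), and neither pair was called. *Ido2* passed the limit of 1 RPKM only through the MC38 libraries, so without either of them it was not tested. The scale matters for Pan02 CAFs, where the difference was -0.05 (adjusted p = 0.79) on log2(RPKM + 1) and 1.46 (adjusted p = 0.0078) with edgeR on recovered reads, a test added after the data had been seen. On that scale the other contrasts of *Ido2* were larger too, at 4.67 (adjusted p = 2.9e-05) in MC38, -4.11 (adjusted p = 0.00048) in EO771 and -2.02 (adjusted p = 0.012) in LL2, the last of which was -0.91 and not called on log2(RPKM + 1). With edgeR on recovered reads, EO771 against LL2 was not called (-1.57, adjusted p = 0.083), while EO771 against Pan02 was (-4.18, adjusted p = 0.00053).

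*Ido1* in CAFs was at 2.13 and 0.823 RPKM in Pan02, 0.861 and 1.12 in MC38, 0.828 and 0.513 in LL2 and 0.032 and 0 in EO771, where 0 reads allow up to 0.1 RPKM. EO771 CAFs were thus below the other 6 libraries, and the other 3 models were close to each other. It reached 1 RPKM in 1 Pan02 and 1 MC38 library only. *Ido1* differed among the models (adjusted p = 0.012), a call lost without EO771 library a (0.063) or b (0.071), and its difference in EO771 was -0.97 (adjusted p = 0.0065), just under the fold threshold. With edgeR on recovered reads the log2 fold change was -5.58 (adjusted p = 0.0023) in EO771, 2.62 (adjusted p = 0.006) in Pan02 and 1.81 (adjusted p = 0.037) in MC38. The values of Pan02 and MC38 are set against a mean that includes EO771, and in that fit no pair without EO771 was called. LL2 against Pan02 gave -1.11 (adjusted p = 0.19), LL2 against MC38 -0.5 (adjusted p = 0.54) and MC38 against Pan02 -0.61 (adjusted p = 0.43). MC38 CAFs were not above Pan02 CAFs in *Ido1* (Pan02 higher by 0.27 on log2(RPKM + 1), adjusted p = 0.39), unlike the order in tumors. The difference between tumors and CAFs was not tested because the tables were made separately. In MC38, *Ido1* was at 14.3 to 21.3 RPKM in tumors and at 0.861 and 1.12 RPKM in CAFs, and *Ido2* at 9.11 to 13.3 RPKM in tumors and 3.71 and 4.74 RPKM in CAFs. In Pan02, *Ido1* was at 0.866 to 3.11 RPKM in tumors and at 0.823 and 2.13 RPKM in CAFs, and *Ido2* at 1.23 to 2.37 RPKM in tumors and at 0.576 and 0.978 RPKM in CAFs. In LL2, *Ido1* was at 0.122 to 0.293 RPKM in tumors and at 0.828 and 0.513 RPKM in CAFs. The leukocyte and epithelial markers in EO771 and Pan02 CAFs given above stand beside these values. So do the epithelial markers in LL2 CAFs (205.0 and 211.0 RPKM) and the fibroblast sum of 1530.3 RPKM in the lower MC38 CAF library. As MC38 tumors were low in epithelial markers too, these markers cannot show whether cancer cells were among MC38 CAFs. The part of other cells in the CAF values was not tested.

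**Figure D4:**
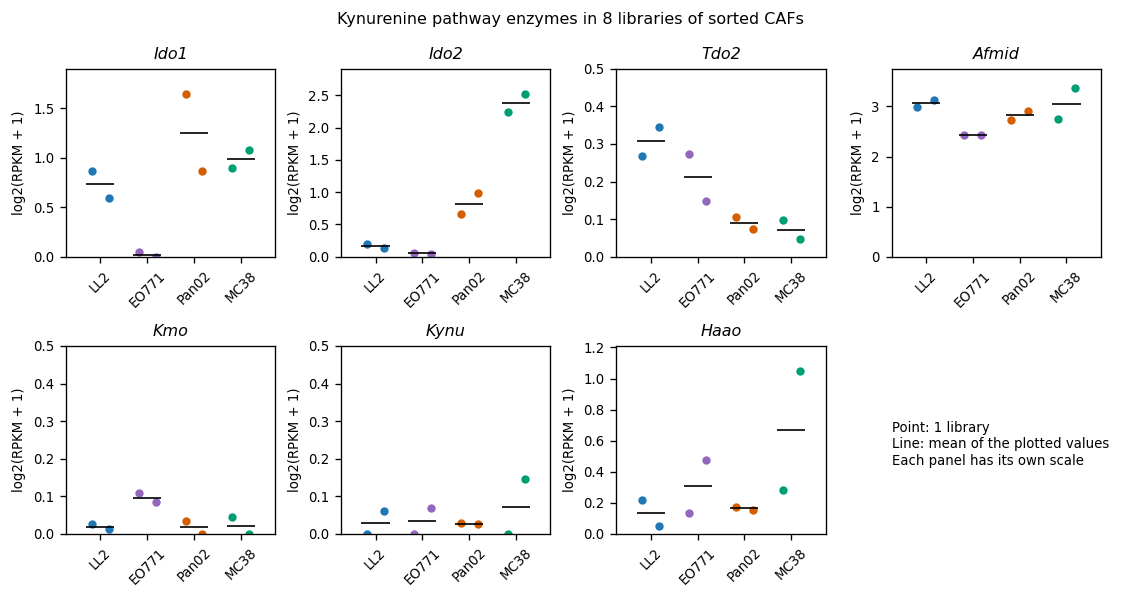
Levels of the 7 enzymes in 8 CAF libraries as log2(RPKM + 1), with 1 point per library, a line at the mean of the plotted values of each model, and a scale of its own for each panel. *Ido2* is highest in the 2 MC38 libraries, and *Ido1* is near 0 in both EO771 libraries.

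*Afmid* was the most abundant enzyme of the pathway in CAFs, at 4.35 to 9.28 RPKM in the 8 libraries, and lowest in EO771 (4.4 and 4.35 RPKM), below all others. The models did not pass the threshold for it (adjusted p = 0.067), and did so without either MC38 library (adjusted p = 0.003 and 0.011), which differed from each other (5.68 and 9.28 RPKM). *Tdo2* was at 0.033 to 0.27 RPKM, *Kmo* at 0 to 0.078, *Kynu* at 0 to 0.106 and *Haao* at 0.036 to 1.07, and none of the 4 was tested. The EO771 libraries held 4.0 and 3.0 reads of *Kmo* (0.078 and 0.06 RPKM), which cannot be ranked above Pan02 library b and MC38 library b, where 0 reads allow up to 0.0676 and 0.13 RPKM. *Tdo2*, *Kmo*, *Kynu* and *Haao* thus rest on no more than 12.0 reads in any CAF library, though *Tdo2* and *Haao* were found in all 8. In whole tumors the 4 enzymes were found in all 15 libraries, with *Kynu* as low as 3.5 counts in EO771 tumor 2.

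The wider pathway was described by 4 lists of genes chosen with earlier results of these data known. For the interferon-gamma list, 13 genes were tested in tumors. In MC38 6 of them were called higher (11.2% of all tested genes), with a median log2 fold change of 0.96. In EO771 5 were called lower (13.7% of all tested genes, median -0.81), and in Pan02 5 were called higher (18.8% of all tested genes) and 1 lower (median 0.81), beside medians over all tested genes between -0.04 and 0.05. In MC38 the genes called higher were *Cxcl9*, *Gbp2*, *Cd274*, *Ifng* itself (2.23, adjusted p = 0.0019), the transcription factor *Irf1* (1.58, adjusted p = 8.1e-06) and the chemokine *Cxcl10* (3.82, adjusted p = 6.1e-06), which was at 459.0 to 614.0 RPKM there. In Pan02, where 7.92% of all tested genes were called lower, the genes called higher were *Jak2* (1.43), *Ifngr1* (1.35), *Gbp2* (1.49), *Ciita* (1.48) and *Socs1* (1.12), while *Cxcl10* was lower by -1.52 (adjusted p = 0.026) and *Ifng* did not pass the threshold (0.81, adjusted p = 0.21). *Gbp2*, an interferon-induced GTPase, was called higher in both models. In MC38 CAFs 2 of 12 tested genes were called higher (*Cxcl10* and *Socs1*), against 10.9% of all tested genes, and *Jak2* lower, where 9.87% of all tested genes were called lower. In Pan02 CAFs 3 were called higher (*Gbp2*, *Ciita* and *Jak2*), against 9.73% of all tested genes, and 2 lower (*Cxcl10* and *Irf8*), against 8.41%.

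Of the aryl hydrocarbon receptor list, 8 genes were tested in tumors, and *Cyp1a1*, its classical target, had too few counts, at most 0.081 RPKM in any tumor. *Ahr*, the receptor, was at 19.1 to 70.5 RPKM in Pan02 tumors and at 1.05 to 5.78 RPKM in the others, a log2 fold change of 3.98 (adjusted p = 2.3e-08), and at 67.4 and 69.1 RPKM in Pan02 CAFs and at most 2.88 RPKM in other CAFs (4.65, adjusted p = 2.3e-06). *Cyp1b1*, a target of the receptor that is also known from fibroblasts, was higher in Pan02 tumors (4.65, adjusted p = 3.1e-06) and CAFs (2.05, adjusted p = 0.0033). It was also called higher in MC38 tumors (1.52, adjusted p = 0.03) and lower in B16 (-3.04, adjusted p = 0.0035) and EO771 tumors (-2.44, adjusted p = 0.013). *Nqo1*, also a target, was lower in Pan02 (-2.91 in tumors and -2.03 in CAFs) and higher in MC38 (2.64 and 2.24). *Tiparp*, another target, stayed under the fold threshold in all 5 tumor models, with values from -0.97 to 0.82, and the repressor *Ahrr* was called in B16 only (1.69, adjusted p = 0.0027). In CAFs *Tiparp* was called lower in MC38 (-1.41, adjusted p = 0.0067). *Cyp1b1* and *Nqo1* thus moved in opposite directions in Pan02 and in the same direction in MC38 tumors. In MC38 CAFs, where *Nqo1* was higher, *Cyp1b1* was not called (-0.99, adjusted p = 0.056).

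**Figure D5:**
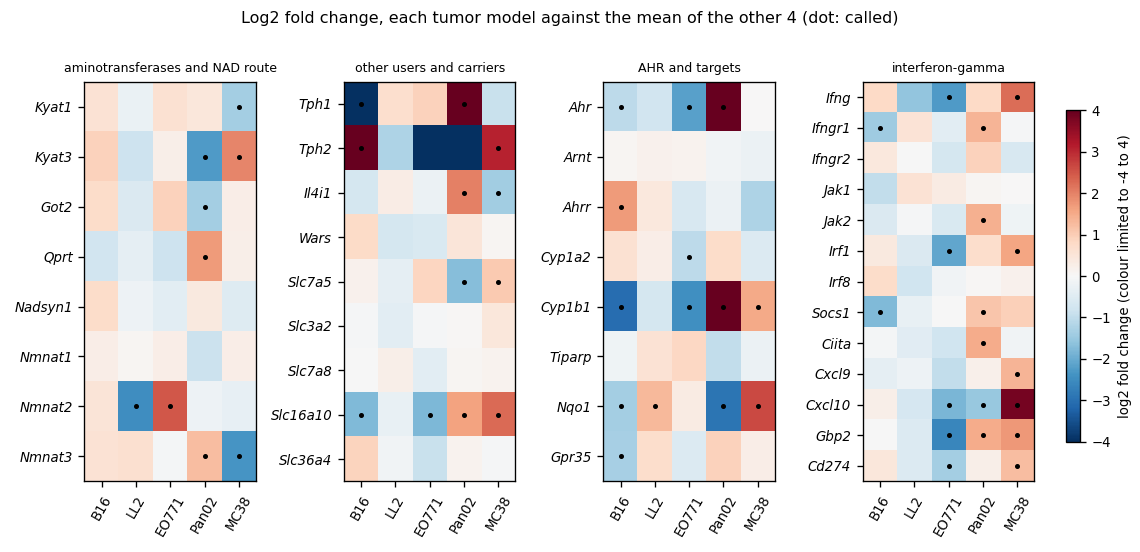
Log2 fold change in tumors of the tested genes of the 4 lists, by model and as contrasts with the remaining 4 models, with colour limited to -4 to 4 and a dot where the contrast was called. In the MC38 column of the interferon-gamma panel 6 genes carry a dot, all of them higher, and *Ahr* and *Cyp1b1* are highest in Pan02.

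Of 8 tested genes for aminotransferases and the route to NAD, 4 were called in Pan02 tumors, 2 higher (18.8% of all tested genes) and 2 lower (7.92%), and 3 in MC38 tumors, 1 of them higher (11.2% of all tested genes) and 2 lower (8.23%). *Qprt*, which takes up quinolinate, the product that follows *Haao*, was higher in Pan02 tumors by 1.69 (adjusted p = 0.0001), with 1.78 to 2.52 RPKM there and 0.314 to 1.35 RPKM in the other tumors. In CAFs it was called higher in MC38 (1.1, adjusted p = 0.00072), at 3.4 and 4.83 RPKM, and was at 1.56 and 1.69 RPKM in Pan02 (-0.16, adjusted p = 0.4). *Kyat3*, an aminotransferase that makes kynurenic acid, was at 9.08 to 10.0 RPKM in MC38 tumors and at 0.746 to 1.09 RPKM in Pan02 tumors, and had the same order in CAFs, with 6.3 and 7.52 RPKM against 0.137 and 0.173 RPKM. The aminotransferase *Kyat1* had the reverse order in tumors, at 1.09 to 1.64 RPKM in MC38 (-1.35, adjusted p = 6.4e-05) and 3.35 to 4.2 RPKM in Pan02 (0.44, not called). *Got2*, also an aminotransferase, was called lower in Pan02 tumors (-1.35, adjusted p = 2.6e-07) and was not called in MC38 (0.27). *Aadat* and *Acmsd* had too few counts to be tested. Among 9 other users and carriers of tryptophan and kynurenine, 3 were called higher in MC38 tumors (11.2% of all tested genes) and 3 in Pan02 tumors (18.8%), each with 1 lower (8.23% and 7.92%). *Slc16a10*, a carrier of aromatic amino acids, was higher in both (2.28, adjusted p = 3.8e-08, and 1.6, adjusted p = 5.8e-07). *Il4i1*, a secreted oxidase of tryptophan and phenylalanine, was higher in Pan02 (2.03, adjusted p = 2.6e-05) and lower in MC38 (-1.4, adjusted p = 0.0041), and *Slc7a5*, a large neutral amino acid carrier, did the reverse (-1.69 and 1.04).

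The genes whose values over the 15 tumors were nearest to each enzyme were found among 15269 genes by the root mean square difference of centred log2(CPM + 1), which is given in parentheses as a description. Nearest to *Ido1* were *Ido2* (0.39), *C130026I21Rik* (0.4) and *Sox2* (0.53), and nearest to *Ido2* were *Ido1* (0.39), *C130026I21Rik* (0.4) and *Slco4a1* (0.46). *Sox2*, a transcription factor of stem cells, was thus among the genes nearest to a dioxygenase. Nearest to *Tdo2* were *Serpina3k* (0.2), *Alb* (0.21) and *Apob* (0.21), all genes of hepatocytes, and to *Kynu* *Slc36a2* (0.25), *Tdo2* (0.26) and *Cd209c* (0.27). Nearest to *Kmo* were *Gcsam* (0.2), *Sytl1* (0.2) and *Fcrla* (0.21). *Afmid* was nearest to *Gpatch2* (0.15), *6030458C11Rik* (0.16) and *Bop1* (0.17), and *Haao* to *Rogdi* (0.19), *Rab43* (0.2) and *Lrch4* (0.22).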

How the data were processed

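Polyadenylated RNA of 15 whole tumors and 8 libraries of sorted FAP+ CAFs was sequenced from unstranded libraries. Tumor values are expected counts of RefSeq transcripts that the authors left without normalization, in steps of 0.5. CAF values are RPKM of the same transcripts as deposited, given to 3 decimals. Per the submitters' processing notes and the study's methods, reads were aligned to mm10 with STAR 2.5.0c and counted over exons with HOMER. DESeq2, also named there, left no scaling in these counts, which keep their steps of 0.5. Columns of CT26 samples, 5 in number, were not used.

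For each of 24940 symbols the transcript with the highest average value stood for the gene. The members and lists were chosen with earlier results of these data known, and 1 gene of the interferon-gamma list is not reported here. Named genes were the 7 enzymes, the members of the 4 lists and the 3 nearest genes of each enzyme that averaged 1 CPM or more in some model. For tumors, counts ending in 0.5 were rounded up, low counts filtered with filterByExpr (10 counts in the median library, 0.605 CPM, in at least 3 tumors), scaled by TMM and fitted for all 15 tumors with edgeR 4.0.16 (quasi-likelihood), with an F test over the 5 models and contrasts of each model with the mean of the other 4. The standard error is the log2 fold change divided by the square root of F. For CAFs, genes reaching 1 RPKM in 2 or more libraries were fitted with limma 3.58.1 (variance trend) on log2(RPKM + 1), a scale that understates changes of low genes. P-values were adjusted by Benjamini-Hochberg over all genes tested. Tumor RPKM were computed from counts, transcript length and summed counts with the TMM factors. CAF RPKM were used as deposited, without TMM factors.

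Summed counts per tumor were 10035180 to 21946495. RPKM steps gave 9270000 to 22840000 reads per CAF library, with at least 99.3% of low values within 0.1 reads of a step of 0.5 reads. Limits for 0 counts assume 3 counts and cover counting error only. The 2 CAF libraries of a model, from separate sorting rounds, carried no replicate number and are called a and b. The labels do not say that tumors came from separate animals. As mice were injected on the right or on both sides, tumors of a model may share a mouse. The p-values measure the spread between these samples. The alternatives were other scaling, DESeq2 1.42.0, other filters, rounding, pseudocount and transcript choice, a replicate block, and leaving out each library. The edgeR and limma fits at their main settings and the DESeq2 fit were tested on simulated data, with changes placed in genes of higher level only. The other settings and changes in genes with few counts were not simulated.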

Additional observations from a re-analysis of the deposited data

How the results depend on the processing

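In tumors, the number of enzymes called among the 5 models was 6 or 7 under every alternative, and the 2 enzymes higher in MC38 and the 5 higher in Pan02 stayed within 1.5 times their number. Leaving out each tumor in turn gave 4 to 5 enzymes in Pan02, 1 to 2 in B16, 1 to 2 in LL2 and 2 to 3 in EO771. With counts in steps of 0.5 rounded down, 1 rather than 2 enzymes were called in LL2, since *Ido1* there rests on a few counts. The lower values of *Ido1* in B16, EO771 and LL2 and of *Kynu* in EO771 are limited by depth.

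In CAFs the counts were less stable, as 3 enzymes were tested and the log scale compresses low values. Among the 4 models, 2 enzymes were called, and 1 with the longest transcript, where fewer enzymes were tested. With a pseudocount of 0.1, MC38 had 2 enzymes called, EO771 2, Pan02 1 and LL2 1. By adjusted p alone Pan02 had 1, EO771 3 and LL2 1. With edgeR on recovered reads, chosen after seeing the data, MC38 had 2, EO771 2, Pan02 2 and LL2 1, with the filter on low counts or without it. Leaving out each library in turn gave 1 to 2 among the models, 0 to 1 for MC38, 0 to 2 for EO771 and 0 to 1 for Pan02, with the lone library of a model assumed to vary like the others. The difference of *Ido2* in Pan02 CAFs, -0.05, turned to 0.75 with a pseudocount of 0.1, to 0.12 without Pan02 library a (-0.21 without library b), and to 1.46 and 1.48 with edgeR on recovered reads with and without the filter.

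Tumors of unlike models with the same replicate number did not deviate together, with correlations of -0.18 to 0.25 over 30 pairs (median 0.01, 5 pairs over 0.1), so the numbers do not pair the tumors. With the replicate block, 7 rather than 6 enzymes were called among the tumor models, *Haao* being added, and the block left the number of calls in each of the 5 contrasts as it was. For CAFs the planned replicate block was not run. No paired analysis was possible because the CAF columns carry no replicate numbers.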
